A study of Mus musculus with 8 samples.

Results

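The endoplasmic reticulum (ER) chaperone and unfolded protein response genes are 37 genes taken by name from a table of 26520 mouse genes, and all 37 were found. Of these, 10 belong to the ER Hsp70 and Hsp90 chaperone system, 2 are lectin chaperones, 8 are disulphide or proline isomerases or their partners, 3 are stress sensors, 3 are transcription factors grouped with Trib3, 9 serve ER-associated degradation and 1 encodes wolframin. PolyA RNA was sequenced from the nuclear and the cytoplasmic fraction of MIN6 cells, an insulin-secreting line from a mouse beta-cell tumour, and from the nuclear and the cytoplasmic fraction of mouse liver. There were 2 libraries per fraction and 8 in all. No treatment or genotype was labelled, the MIN6 cells grew in serum-containing medium, and no age is given for the mice. The strain label of the 4 liver samples starts at C57BL/6 and counts up by sample. MIN6 is a single tumour-derived line, and liver is a whole tissue of several cell types. MIN6 nuclei were pelleted through sucrose after mild detergent lysis, whereas liver nuclear RNA was the soluble RNA left once chromatin had been spun out of the nuclei. Tissue and fractionation method can therefore not be told apart. The series is about mRNA kept in the nucleus, so each comparison of fractions asks in which fraction a transcript was relatively more abundant.

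The ER folds secreted and membrane proteins. Chaperones hold nascent chains, lectin chaperones retain unfinished glycoproteins, disulphide isomerases and oxidases form disulphide bonds, and a degradation route returns misfolded chains to the cytosol. When unfolded chains accumulate, the ER membrane sensors IRE1 (Ern1), PERK (Eif2ak3) and ATF6 are activated. IRE1 cuts the Xbp1 mRNA in an unconventional splicing reaction, PERK slows translation while favouring that of Atf4, and cleaved ATF6 enters the nucleus. XBP1 and ATF6 act through ER stress response elements in promoters of chaperone and degradation genes, and ATF4 acts on Ddit3 (CHOP) and Trib3. Beta cells and hepatocytes both carry a heavy secretory load, of insulin in beta cells and of plasma proteins in hepatocytes.

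Values are FPKM, fragments counted relative to transcript length and sequencing depth, divided by 1 scaling factor per library (scaled FPKM), because the deposited values were on different scales. The sum of all genes was between 35469 and 63355 in MIN6 libraries, against 104923 to 176592 in liver nuclear and 859210 to 1219625 in liver cytoplasmic libraries. For 53.0% of 10826 genes the values were whole multiples of a step, which gave read numbers. These genes held 88536 to 173697 reads per library, so the libraries were shallow for low genes. Titles and source fields name opposite fractions for the MIN6 samples, and the titles were used. The libraries titled MIN6 nuclear held 952 and 372 scaled FPKM of 4 nuclear noncoding RNAs, against 14.0 and 5.84 in those titled MIN6 cytoplasmic. All 10 beta-cell markers were above 0 in every MIN6 library and at 0 in every liver library. All 10 hepatocyte markers were above 0 in liver, and their sum was 12.2 to 43.2 scaled FPKM in MIN6 libraries, against 2853 to 28899 in liver libraries. Of 5 immune markers in the table, 1 was above 0 in each MIN6 library and 4 or 5 in liver libraries, with sums of at most 0.905 in MIN6, against 55.8 to 199.6 scaled FPKM in liver. Of 6 endothelial and stellate markers, 0 to 3 were above 0 in MIN6 libraries and 5 or 6 in liver libraries, with sums of at most 0.707 in MIN6, against 28.0 to 63.0 in liver. Plasma cells are rich in ER chaperones. Of 6 plasma-cell markers, Tnfrsf17 was at 0 in all 8 libraries and the list summed to 0.674 to 3.31 in MIN6 libraries and 9.52 to 58.5 in liver libraries. Sdc1, which hepatocytes also express, gave 8.28 to 56.6 scaled FPKM in liver libraries, and Mzb1 gave most of the sum in the MIN6 nuclear libraries. The part of these other cells in the liver values was not tested.

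Promoter sequences from RefSeq (build GRCm38.p6, from 250 bases before to 50 bases after each annotated start) were matched for 32 of the 37 genes. The ER stress response element, searched on both strands as CCAAT, 9 bases of any kind and CCACG, was present in 10 of these 32 and in 29 of 17492 protein-coding genes (0.166%). The 10 were Calr, Canx, Creld2, Derl3, Dnajc3, Ero1lb, Hsp90b1, Hspa5, Pdia6 and Syvn1, and they are counted among the 29. Members were picked by name from the pathway in which this element is known to act. The counts therefore describe the members and are not a test. The related element ERSE-II, searched as ATTGG, 1 base of any kind and CCACG, was present in Dnajb11 and Herpud1 and in 11 of the 17492 genes (0.0629%). It shares the CCACG letters with the longer element, but no pair of matches in these windows overlapped. The XBP1-binding core TGACGTGG was in none of the 32 windows and in 0.823% of genes. The amino acid response letters TGATGNAA were in Herpud1 and Trib3 and in 4.13% of genes. The 6 promoters below are shown because they stand on both sides of the fraction comparison: Hspa5, Calr, Hsp90b1 and Pdia6 were called lower in nuclear than in cytoplasmic libraries of at least 1 tissue, whereas Herpud1 and Syvn1 were called higher in nuclear libraries of liver. Each runs 5′ to 3′ on the gene's strand, and capitals mark the fixed letters of the matches.
Hspa5, chr2:34771840-34772139 (+ strand): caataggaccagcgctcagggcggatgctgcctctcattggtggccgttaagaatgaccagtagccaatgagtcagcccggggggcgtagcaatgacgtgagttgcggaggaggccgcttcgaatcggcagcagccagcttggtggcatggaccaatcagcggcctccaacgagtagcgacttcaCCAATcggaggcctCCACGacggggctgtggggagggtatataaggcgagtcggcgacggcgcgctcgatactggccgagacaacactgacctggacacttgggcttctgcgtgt
Calr, chr8:84846882-84847181 (- strand): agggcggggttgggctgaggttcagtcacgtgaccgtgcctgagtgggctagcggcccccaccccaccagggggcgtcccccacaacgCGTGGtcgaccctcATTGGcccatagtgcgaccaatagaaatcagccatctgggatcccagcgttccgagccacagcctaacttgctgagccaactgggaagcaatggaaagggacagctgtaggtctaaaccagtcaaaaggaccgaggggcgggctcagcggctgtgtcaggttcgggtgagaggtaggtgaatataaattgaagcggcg
Hsp90b1, chr10:86705395-86705694 (- strand): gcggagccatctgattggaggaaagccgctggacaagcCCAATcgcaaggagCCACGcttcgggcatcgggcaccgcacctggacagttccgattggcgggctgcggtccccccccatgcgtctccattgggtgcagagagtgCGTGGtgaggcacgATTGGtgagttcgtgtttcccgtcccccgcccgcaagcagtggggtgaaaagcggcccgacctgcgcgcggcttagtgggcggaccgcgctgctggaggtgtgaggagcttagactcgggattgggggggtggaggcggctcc
Pdia6, chr12:17266339-17266638 (+ strand): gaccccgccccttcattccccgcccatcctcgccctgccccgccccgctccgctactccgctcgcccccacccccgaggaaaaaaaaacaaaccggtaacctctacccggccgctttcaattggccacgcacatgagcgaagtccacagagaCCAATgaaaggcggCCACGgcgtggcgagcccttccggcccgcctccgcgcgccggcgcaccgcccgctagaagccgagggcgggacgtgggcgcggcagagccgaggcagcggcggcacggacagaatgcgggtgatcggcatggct
Herpud1, chr8:94386179-94386478 (+ strand): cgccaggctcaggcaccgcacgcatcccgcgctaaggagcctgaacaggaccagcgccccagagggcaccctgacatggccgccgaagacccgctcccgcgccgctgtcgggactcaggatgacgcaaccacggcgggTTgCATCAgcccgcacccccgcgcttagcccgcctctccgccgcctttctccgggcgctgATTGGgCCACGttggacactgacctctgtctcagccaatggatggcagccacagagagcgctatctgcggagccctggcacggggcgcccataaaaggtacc
Syvn1, chr19:6046326-6046625 (+ strand): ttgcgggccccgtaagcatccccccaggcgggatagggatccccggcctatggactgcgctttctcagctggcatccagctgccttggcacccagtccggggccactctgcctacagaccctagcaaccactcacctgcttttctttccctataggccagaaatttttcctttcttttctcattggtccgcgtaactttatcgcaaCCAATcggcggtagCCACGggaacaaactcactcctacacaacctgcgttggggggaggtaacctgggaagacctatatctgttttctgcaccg

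The element began 65 bases before the annotated start in Hspa5, 98 in Pdia6, 44 in Syvn1 and 162 in Calr, where it lies on the other strand. Hsp90b1 held 2 copies, beginning 212 and 107 bases before the start on opposite strands. In Herpud1 the ERSE-II letters began 52 bases and the amino acid response letters 112 bases before the start. The 12 genes with either element had a median log2 ratio of nuclear over cytoplasmic of -0.81 in MIN6 and -0.97 in liver. The 20 genes with a promoter but no such letters had medians of -0.90 in MIN6 and, for the 19 tested, -0.35 in liver. The holders ranged in liver from -1.60 for Pdia6 to 1.46 for Syvn1. This lay within the range of the genes without such letters, from -2.30 to 1.66.

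In MIN6 cells most of the protein-folding genes were lower in the nuclear than in the cytoplasmic libraries, and Ddit3 was the member called higher. Of the 36 members tested, 1 was called higher in nuclear libraries and 18 lower, where 20.1% of the 7762 genes tested were called higher and 31.1% lower. The median log2 ratio was -0.89 over the members and -0.27 over all genes. In liver 4 members were called higher (Atf4, Ddit3, Herpud1 and Syvn1) and 10 lower of 36 tested, where 18% of 8608 genes were called higher and 18.5% lower. Here the medians were -0.60 over the members and 0.01 over all genes, but -0.67 over the 2278 genes with a mean of at least 10 scaled FPKM. In MIN6 the corresponding median for 1610 genes was -0.33. At this higher level, 438 of the 2278 genes in liver were called higher and 908 lower. In MIN6, 480 of the 1610 genes were called higher and 645 lower. Atf6 in MIN6 and Trib3 in liver were under the minimum mean of 1 scaled FPKM. A call is an adjusted p under 0.05 in limma on log2(scaled FPKM + 1), with Benjamini-Hochberg adjustment over all genes tested. Log2 ratios are on that scale, which understates the change of low genes.

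**Figure D1:**
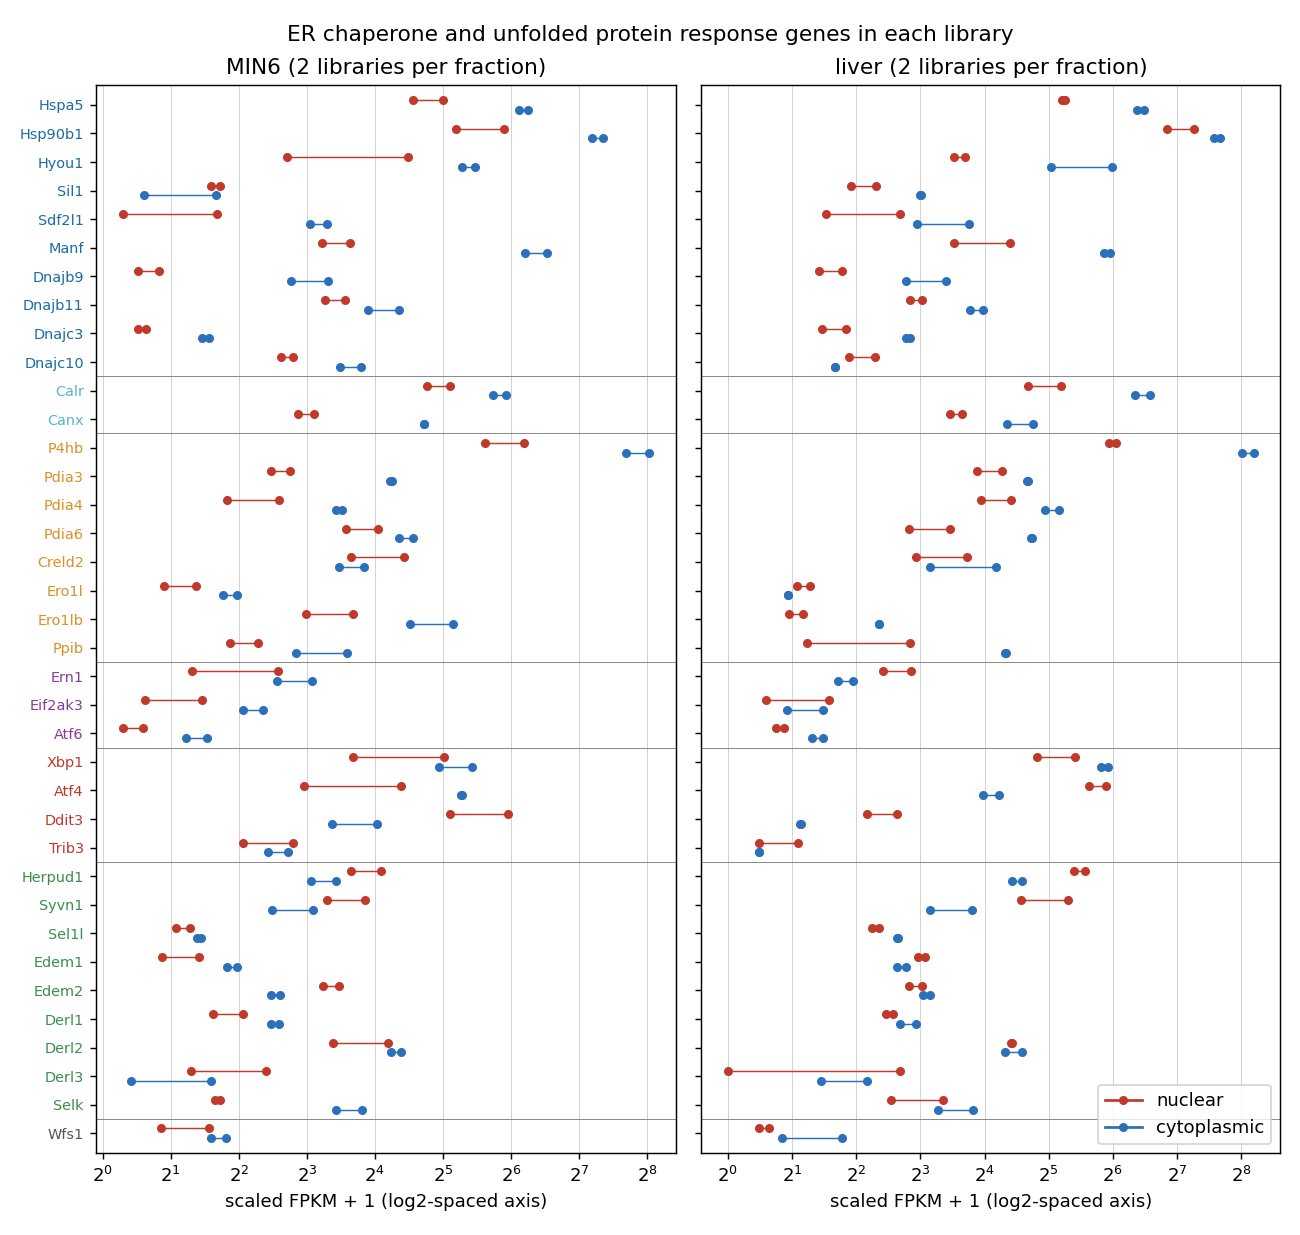
Scaled FPKM plus 1 of the 37 genes in every library, on a log2-spaced axis, with MIN6 on the left and liver on the right. Each pair of points joined by a line is the 2 libraries of a fraction, nuclear in red above cytoplasmic in blue, and genes are grouped by role; P4hb and Hsp90b1 are the highest members in the cytoplasm of both tissues, and Derl3 is at 0 in a liver nuclear library.

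Summed over the 37 genes, the level was 378 and 454 scaled FPKM in the MIN6 nuclear libraries, against 902 and 1048 in the MIN6 cytoplasmic libraries. The liver nuclear libraries held 543 and 668 scaled FPKM, against 1095 and 1128 in the liver cytoplasmic libraries. The fractions did not overlap in either tissue on this scale. As a share of the library's summed FPKM, the members held 0.501% and 0.453% in MIN6 nuclear and 0.995% and 1.13% in MIN6 cytoplasmic libraries. In liver the shares overlapped, at 0.345% and 0.468% in nuclear and 0.466% and 0.493% in cytoplasmic libraries. Of the 35 members tested in both tissues, 9 were called lower in the nuclear libraries of both tissues: Hspa5, Hyou1, Manf, Dnajb9, Dnajc3, Calr, P4hb, Ero1lb and Ppib. Of all 6134 genes tested in both, 14.8% were. With scaling factors from the MIN6 libraries alone, limma did not call Hyou1, Dnajc3, Calr and Ppib in MIN6 (adjusted p = 0.0892, 0.121, 0.218 and 0.147). The others of the 9 stayed called there. With each library summed to 1000000, P4hb alone of the 9 stayed called in liver (adjusted p = 0.0396), where 719 of all genes were called lower. Ddit3 was called higher in both, as 11.3% of genes were, Atf4 was called lower in MIN6 and higher in liver, as 0.212% of genes were, and 13 members were called in neither, as 36.2% of genes were. Leaving out 1 library changed these counts, over the members and over all genes. In MIN6 the members called lower numbered 9 and 15 without nuclear replicate 1 or 2, and 5 and 4 without cytoplasmic replicate 1 or 2, where all genes called lower numbered 1006 to 2096; Manf, Dnajb9, Canx and Selk were called each time. In liver 0 of all genes, and so no member, were called by limma without nuclear replicate 1 or without nuclear replicate 2, and 1 and 0 were called higher and 3 and 1 lower without cytoplasmic replicate 1 or 2. No called member changed sign in these fits, in which the lone library of a group is assumed to vary like the other group. In MIN6 all nuclear values lay above all cytoplasmic values for 4 members and below them for 26 of 36, where 32.6% and 45.7% of all tested genes did so. In liver they lay above for 8 and below for 23 of 36, where 35.5% and 36.7% did so.

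The Hsp70 and Hsp90 system, the largest group, had the most members called lower in nuclear libraries, 8 of 10 in MIN6 and 5 of 10 in liver. Of all genes tested, 31.1% were called lower in MIN6 and 18.5% in liver. Among genes with a mean of at least 10 scaled FPKM, 645 of 1610 were called lower in MIN6 and 908 of 2278 in liver. Hspa5 (BiP), the ER Hsp70 that binds unfolded chains and keeps the sensors inactive, had 22.5 and 30.9 scaled FPKM in MIN6 nuclei and 68.3 and 74.9 in MIN6 cytoplasm (log2 ratio -1.40, SE 0.31, adjusted p = 0.0115). Liver gave 35.9 and 37.3 scaled FPKM in nuclear and 82.0 and 88.4 in cytoplasmic libraries (log2 ratio -1.19, SE 0.27, adjusted p = 0.0268). The fractions were apart in both tissues, and Hspa5 rested on 120 to 353 reads in every library. Manf, a secreted and ER-resident survival factor, had the lowest ratio of any member in MIN6, with 11.4 and 8.34 scaled FPKM in nuclear and 73.2 and 91.5 in cytoplasmic libraries (log2 ratio -2.94, SE 0.32, adjusted p = 0.00188). Its liver values were 10.6 and 20.1 in nuclear and 61.0 and 57.0 in cytoplasmic libraries (log2 ratio -1.94, SE 0.39, adjusted p = 0.0187). Manf shares 9.25% of its exon bases with other genes, Rbm15b on the same strand and Dcaf1 and 4930524O07Rik on the other.

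Hsp90b1 (GRP94), the ER Hsp90, was the most abundant chaperone of this system. It had 35.7 and 58.4 scaled FPKM in MIN6 nuclear and 146 and 163 in MIN6 cytoplasmic libraries (log2 ratio -1.73, SE 0.35, adjusted p = 0.00807). Its liver values were 113 and 153 in nuclear and 204 and 189 in cytoplasmic libraries, where the difference did not pass (log2 ratio -0.57, SE 0.30, adjusted p = 0.193). Hsp90b1 shares 15.7% of its exon bases with other genes, 1810014B01Rik on the other strand and Gm15344 and Gm25745 on the same strand. Hyou1 (GRP170), an exchange factor of BiP, spread widely in the MIN6 nuclear libraries, at 5.55 and 21.5 scaled FPKM, against 37.7 and 43.4 in the MIN6 cytoplasmic libraries (log2 ratio -1.77, SE 0.57, adjusted p = 0.0392). In liver it was tight in the nuclear libraries at 10.5 and 11.9 and spread in the cytoplasmic ones at 31.8 and 62.6 (log2 ratio -1.91, SE 0.41, adjusted p = 0.0229). Sil1, the other exchange factor, was called in neither tissue and rested on 1 to 6 reads per library.

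The J-domain co-chaperones, which stimulate BiP or help it with substrates, were mostly low. Dnajb9 (ERdj4) had 0.778 and 0.428 scaled FPKM in MIN6 nuclear and 5.80 and 8.96 in MIN6 cytoplasmic libraries (log2 ratio -2.37, SE 0.34, adjusted p = 0.00296). In liver Dnajb9 had 2.43 and 1.66 in nuclear and 5.89 and 9.59 in cytoplasmic libraries (log2 ratio -1.50, SE 0.35, adjusted p = 0.0288). The fractions did not overlap, on 4 to 15 nuclear and 18 to 71 cytoplasmic reads. Dnajc3 (p58IPK) was lower in the nuclear libraries of both tissues, with log2 ratios of -0.93 in MIN6 and -1.15 in liver. Dnajc10 (ERdj5), a reductase that aids degradation, had 5.18 and 5.98 scaled FPKM in MIN6 nuclear and 10.2 and 12.9 in MIN6 cytoplasmic libraries (log2 ratio -0.93, SE 0.30, adjusted p = 0.0411). In liver its nuclear values of 3.88 and 2.71 lay above the cytoplasmic values of 2.18 and 2.20 without passing the test (log2 ratio 0.42, SE 0.30, adjusted p = 0.316), on 5 reads in each cytoplasmic library. Dnajb11 (ERdj3) passed in neither tissue, at log2 ratios of -0.72 in MIN6 and -0.94 in liver. Sdf2l1, a partner of the ERdj3 complex, had 0.228 and 2.19 scaled FPKM in MIN6 nuclear and 7.22 and 8.86 in MIN6 cytoplasmic libraries (log2 ratio -2.19, SE 0.48, adjusted p = 0.0111). The lower of those nuclear values was a single read, and in liver Sdf2l1 did not pass.

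Calreticulin (Calr) and calnexin (Canx), the soluble and the membrane-bound lectin chaperones, were both lower in MIN6 nuclear libraries. Calr had 33.3 and 26.1 scaled FPKM in MIN6 nuclear and 59.9 and 52.3 in MIN6 cytoplasmic libraries (log2 ratio -0.90, SE 0.31, adjusted p = 0.0461). Its liver values were 24.6 and 35.4 in nuclear and 80.0 and 95.0 in cytoplasmic libraries (log2 ratio -1.53, SE 0.32, adjusted p = 0.0222). Canx had 6.34 and 7.62 in MIN6 nuclear and 25.3 and 25.4 in MIN6 cytoplasmic libraries (log2 ratio -1.73, SE 0.29, adjusted p = 0.00466). In liver its nuclear values of 10.0 and 11.6 lay below the cytoplasmic values of 25.9 and 19.4, short of the threshold (log2 ratio -0.99, SE 0.30, adjusted p = 0.0574).

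Of the 8 isomerases and partners, 5 were called lower in MIN6 nuclear libraries and 4 in liver nuclear libraries. The shares over all genes tested were 31.1% in MIN6 and 18.5% in liver. At a mean of at least 10 scaled FPKM, 645 of 1610 genes in MIN6 and 908 of 2278 in liver were called lower. P4hb (protein disulphide isomerase) was the highest member in both MIN6 fractions and in liver cytoplasm. It had 48.0 and 71.9 scaled FPKM in MIN6 nuclear and 206 and 261 in MIN6 cytoplasmic libraries (log2 ratio -1.96, SE 0.34, adjusted p = 0.00501). Its liver values were 60.4 and 65.1 in nuclear and 293 and 257 in cytoplasmic libraries (log2 ratio -2.11, SE 0.28, adjusted p = 0.00797). Ppib, the ER cyclophilin B, had 3.87 and 2.66 scaled FPKM in MIN6 nuclear and 6.14 and 11.0 in MIN6 cytoplasmic libraries (log2 ratio -1.13, SE 0.37, adjusted p = 0.0414). Its liver levels were 1.34 and 6.14 in nuclear and 19.0 and 19.2 in cytoplasmic libraries (log2 ratio -2.30, SE 0.57, adjusted p = 0.0339), with 2 and 8 nuclear reads. Ppib shares 25.0% of its exon bases with the antisense gene Snx22, and strand was not stated, so reads of the pair may be mixed. Snx22 itself had 4.86 and 3.64 scaled FPKM in MIN6 nuclear and 6.13 and 8.68 in MIN6 cytoplasmic libraries, and 4.59 and 6.82 in liver nuclear and 20.0 and 15.9 in liver cytoplasmic libraries. It was lower in nuclear libraries as Ppib was, and its part in the Ppib values was not tested. Pdia3 (ERp57), which works with the lectin chaperones, had 4.53 and 5.75 in MIN6 nuclear and 17.6 and 18.0 in MIN6 cytoplasmic libraries (log2 ratio -1.62, SE 0.30, adjusted p = 0.00599).

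Pdia4 (ERp72) and Pdia6 (P5) each passed in a single tissue. Pdia4 was lower in MIN6 nuclear libraries, at 2.55 and 5.01 scaled FPKM, against 10.4 and 9.76 in MIN6 cytoplasmic libraries (log2 ratio -1.26, SE 0.36, adjusted p = 0.0254), and its liver log2 ratio was -0.88. Pdia6 was lower in liver nuclear libraries, at 6.06 and 9.99 scaled FPKM, against 25.8 and 25.4 in liver cytoplasmic libraries (log2 ratio -1.60, SE 0.34, adjusted p = 0.0221), and its MIN6 log2 ratio was -0.65. The difference between tissues was itself tested and did not pass for either. Ero1lb, the pancreas-enriched oxidase that recharges disulphide isomerases, had 6.91 and 11.8 scaled FPKM in MIN6 nuclear and 21.9 and 34.3 in MIN6 cytoplasmic libraries (log2 ratio -1.50, SE 0.39, adjusted p = 0.0187). Liver had 0.931 and 1.26 in nuclear and 4.10 and 4.15 in cytoplasmic libraries (log2 ratio -1.30, SE 0.28, adjusted p = 0.0233). The widely expressed oxidase Ero1l and the ER protein Creld2 passed in neither tissue; their log2 ratios were -0.74 and 0.38 in MIN6 and 0.24 and -0.33 in liver.

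The sensors were low in every library, between 0.234 and 7.47 scaled FPKM. Eif2ak3 (PERK), the kinase that phosphorylates the translation factor eIF2 alpha, had 0.533 and 1.76 scaled FPKM in MIN6 nuclear and 4.11 and 3.16 in MIN6 cytoplasmic libraries (log2 ratio -1.17, SE 0.38, adjusted p = 0.0401). In liver Eif2ak3 had 1.99 and 0.506 in nuclear and 0.896 and 1.81 in cytoplasmic libraries, which overlapped. Eif2ak3 shares 8.05% of its exon bases with Gm43292 on the other strand. Ern1 (IRE1), a kinase and endoribonuclease, had 1.47 and 4.99 scaled FPKM in MIN6 nuclear and 4.90 and 7.47 in MIN6 cytoplasmic libraries, which overlapped. In liver its nuclear values of 4.37 and 6.25 lay above the cytoplasmic values of 2.30 and 2.87 without passing (log2 ratio 0.80, SE 0.31, adjusted p = 0.101). Atf6, whose cytosolic part becomes a transcription factor, had 0.234 and 0.508 scaled FPKM in MIN6 nuclear and 1.33 and 1.90 in MIN6 cytoplasmic libraries, on 12 to 60 reads. Its liver values were 0.689 and 0.833 in nuclear and 1.80 and 1.49 in cytoplasmic libraries (log2 ratio -0.59, SE 0.28, adjusted p = 0.158).

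Atf4 was the member whose fraction ratio differed most between the tissues. This transcription factor of the PERK branch, encoded at chr15:80255184-80257541 (mm10, + strand), had 6.80 and 19.9 scaled FPKM in MIN6 nuclear libraries and 37.9 and 37.3 in MIN6 cytoplasmic libraries (log2 ratio -1.60, SE 0.49, adjusted p = 0.0327). In liver it had 48.4 and 58.4 in nuclear libraries and 17.6 and 14.7 in cytoplasmic libraries (log2 ratio 1.66, SE 0.29, adjusted p = 0.0143). The nuclear libraries were thus below the cytoplasmic ones in MIN6 and above them in liver, without overlap in either tissue. In MIN6 these values rested on 47 and 100 nuclear reads and on 165 and 159 cytoplasmic reads. In liver they rested on 161 and 170 nuclear reads and on 29 and 24 cytoplasmic reads. Leaving out 1 of the 4 libraries moved the log2 ratio between -2.31 and -0.89 in MIN6 and between 1.53 and 1.79 in liver, and the call was kept in 1 of 4 cases in each tissue. The MIN6 call was kept in 4 of 8 other settings and lost with scaling within the tissue (adjusted p = 0.0769), sums of 1000000 (adjusted p = 0.0582), a pseudocount of 0.1 and no filter. The liver call was kept in 7 of 8 and lost with the FPKM as deposited.

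Ddit3 (CHOP), a transcription factor downstream of Atf4 and linked to stress-induced cell death, was called higher in the nuclear libraries of both tissues. The call was kept in 6 of 8 other settings in MIN6 and 6 of 7 in liver, and in neither with the FPKM as deposited. Ddit3 had 60.8 and 33.4 scaled FPKM in MIN6 nuclear and 9.33 and 15.3 in MIN6 cytoplasmic libraries (log2 ratio 1.83, SE 0.41, adjusted p = 0.0119). In liver it had 3.51 and 5.25 in nuclear and 1.18 and 1.20 in cytoplasmic libraries (log2 ratio 1.28, SE 0.31, adjusted p = 0.0309). In units of the lowest library, the value was 6.00 and 7.85 in liver nuclear and 1.00 in both liver cytoplasmic libraries, so the liver cytoplasmic level may rest on as little as 1 read. The Ddit3 gene (chr10:127290774-127296288, mm10, + strand) shares 10.9% of its exon bases with other genes, among them Mars on the opposite strand. Mars had 31.8 and 19.8 scaled FPKM in MIN6 nuclear libraries, against 9.99 and 7.48 in MIN6 cytoplasmic libraries. In liver Mars had 4.03 and 5.92 in nuclear libraries, against 8.15 and 4.70 in cytoplasmic libraries, which overlapped. Strand was not stated, so Ddit3 and Mars reads may be mixed, and the part of Mars in the MIN6 result was not tested.

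Xbp1, whose spliced form drives chaperone and degradation genes, was among the more abundant members and passed in neither tissue. It had 11.8 and 31.3 scaled FPKM in MIN6 nuclear and 29.8 and 42.0 in MIN6 cytoplasmic libraries (log2 ratio -0.84, SE 0.49, adjusted p = 0.184), and these overlapped. In liver it had 27.2 and 41.7 in nuclear and 55.3 and 59.5 in cytoplasmic libraries (log2 ratio -0.75, SE 0.33, adjusted p = 0.136). The table has 1 value per gene, so the spliced and unspliced Xbp1 forms were not analysed here. Trib3, a pseudokinase induced by Atf4 and Ddit3, had 3.16 and 5.91 scaled FPKM in MIN6 nuclear and 4.40 and 5.59 in MIN6 cytoplasmic libraries (log2 ratio -0.15, SE 0.36, adjusted p = 0.735), which overlapped. In liver it was near the level of 1 read, with 2 and 5 nuclear and 1 and 1 cytoplasmic reads.

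**Figure D2:**
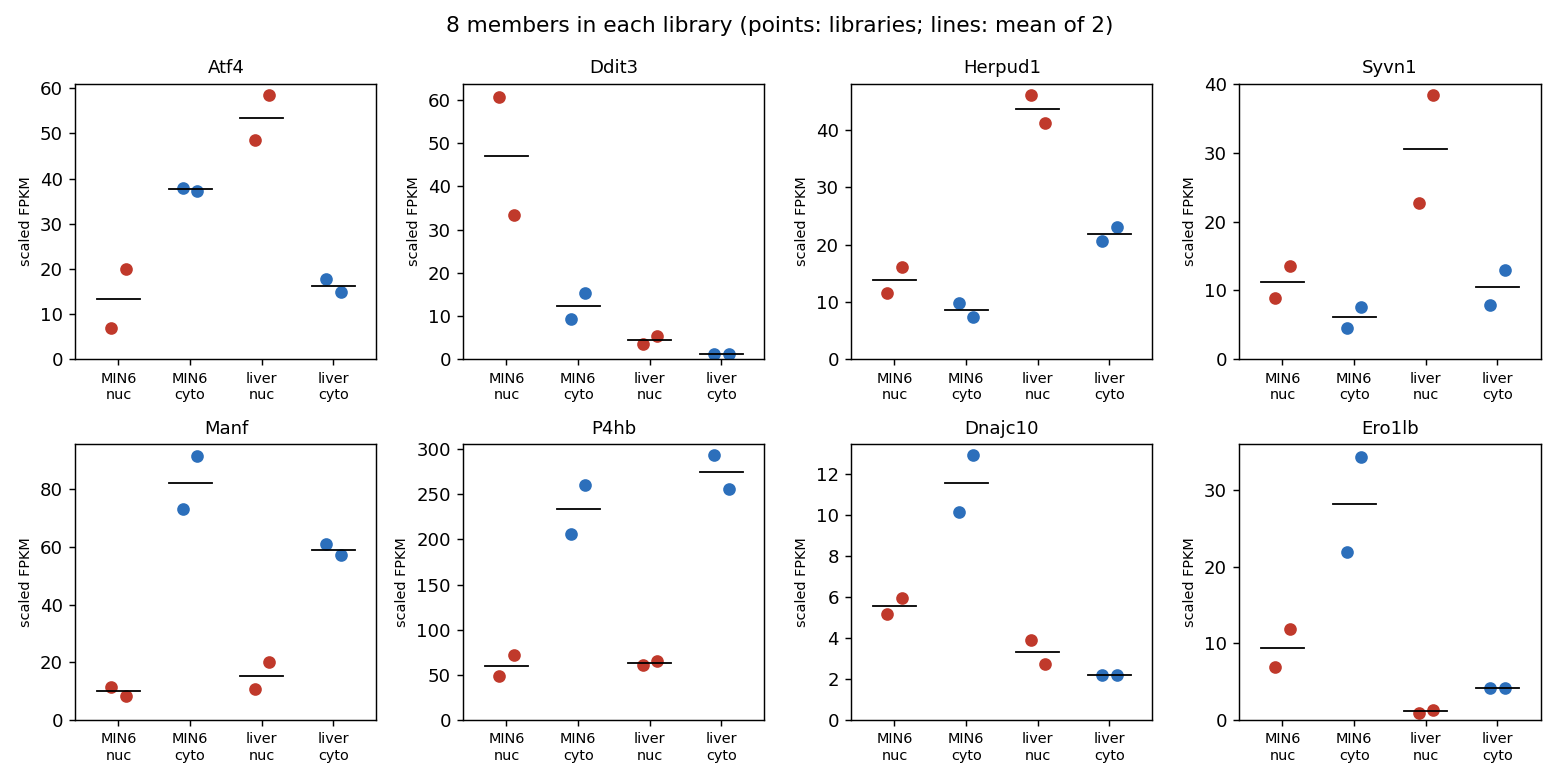
Scaled FPKM of 8 members in each library, with points for libraries and a line for the mean of 2; nuclear libraries are red and cytoplasmic libraries blue. Atf4 is lower in nuclear than in cytoplasmic libraries of MIN6 cells and higher in liver, Ddit3, Herpud1 and Syvn1 are higher in nuclear libraries of both tissues at this scaling, and Manf, P4hb and Ero1lb are lower in nuclear libraries of both.

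Of the 9 degradation genes, Herpud1 and Syvn1 were called higher in liver nuclear libraries and none lower. In MIN6 Selk was called lower and none higher. Each of these 2 liver calls was kept in 5 of 8 other settings. Among the settings that lost both was the FPKM as deposited, where the ratios of all genes were shifted down. Without 1 library the liver log2 ratio lay between 0.89 and 1.05 for Herpud1 and between 1.09 and 1.82 for Syvn1. Over all genes tested, 18% were called higher and 18.5% lower in liver, and 20.1% and 31.1% in MIN6. Herpud1, a membrane scaffold of the degradation complex, had 46.2 and 41.2 scaled FPKM in liver nuclear and 20.5 and 23.0 in liver cytoplasmic libraries (log2 ratio 0.97, SE 0.28, adjusted p = 0.0487). Its MIN6 values were 11.5 and 16.1 in nuclear and 9.73 and 7.31 in cytoplasmic libraries, without overlap but short of the threshold (log2 ratio 0.63, SE 0.33, adjusted p = 0.145). Syvn1 (HRD1), the ubiquitin ligase of the complex, had 22.7 and 38.4 scaled FPKM in liver nuclear and 7.90 and 13.0 in liver cytoplasmic libraries (log2 ratio 1.46, SE 0.41, adjusted p = 0.0462). In MIN6 it had 8.81 and 13.5 in nuclear and 4.58 and 7.55 in cytoplasmic libraries (log2 ratio 0.79, SE 0.37, adjusted p = 0.114). Sel1l, the adaptor of Syvn1, did not go with it: its log2 ratios were -0.24 in MIN6 and -0.35 in liver, neither called.

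Selk, a selenoprotein of the ER membrane, had 2.32 and 2.13 scaled FPKM in MIN6 nuclear and 9.82 and 13.0 in MIN6 cytoplasmic libraries (log2 ratio -1.93, SE 0.30, adjusted p = 0.00387). In liver its fractions overlapped. Edem2, of the mannosidase-like proteins that mark glycoproteins for disposal, had 10.1 and 8.44 scaled FPKM in MIN6 nuclear and 4.53 and 5.09 in MIN6 cytoplasmic libraries, just short of the threshold (log2 ratio 0.82, SE 0.30, adjusted p = 0.0562). Its relative Edem1 had log2 ratios of -0.76 in MIN6 and 0.32 in liver, neither called. The derlins, membrane proteins of the export channel, were called in neither tissue. Derl1 and Derl2 had log2 ratios of -0.70 and -0.52 in MIN6 and of -0.30 and -0.04 in liver, and Derl3 rested on 0 to 15 reads. Wfs1 (wolframin), an ER membrane protein lost in Wolfram syndrome with its early diabetes, was low, with log2 ratios of -0.49 in MIN6 and -0.75 in liver, neither called.

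The ratio in MIN6 was set against the ratio in liver for the 35 members tested in both tissues, from 8 libraries in 1 fit. In limma with adjustment over 6134 genes, 1 member had a called difference, Atf4, where 0.815% of genes were called with a larger ratio in MIN6 and 1.91% with a smaller ratio. The MIN6 minus liver difference for Atf4 was -3.26 on the log2 scale (SE 0.62, adjusted p = 0.0355). Without 1 library it was between -3.97 and -2.55, and the call was kept without MIN6 nuclear replicate 2 or either liver cytoplasmic library, 3 of 8 cases. In limma, 0 members were called with a larger ratio in MIN6. At an unadjusted p under 0.05 there were 2 (Sil1 and Edem2), against 7 with a smaller ratio. Together these were 9 of the 35 members, where 1507 of all 6134 genes had such a p in either direction. After Atf4, Dnajc10 came next at -1.34 (SE 0.44, adjusted p = 0.105) and Ern1 at -1.68 (SE 0.62, adjusted p = 0.136). Hspa5 differed by -0.21 (SE 0.43) and P4hb by 0.15 (SE 0.46). Of the 35, 23 had a ratio below 0 in both tissues, 3 above 0 in both and 9 opposite signs. Among all 6134 genes, 2610 were below 0 in both, 2214 above 0 in both and 1310 of opposite sign. Across these 35 genes the 2 ratios had Pearson's r = 0.55 and Spearman's rho = 0.54, and across all 6134 genes r = 0.75; the genes of a library share its scaling and are not independent replicates.

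**Figure D3:**
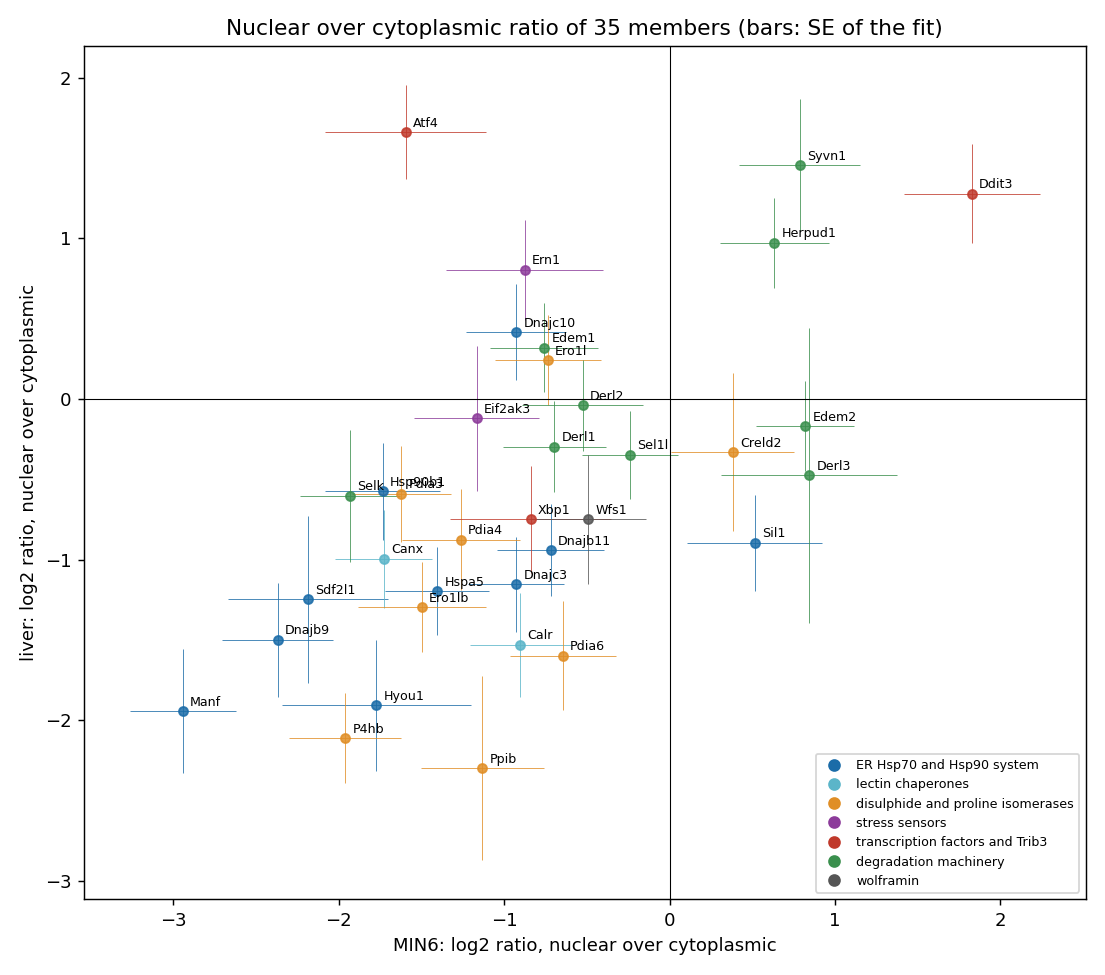
Log2 ratio of nuclear over cytoplasmic libraries in MIN6 (x axis) and in liver (y axis) for the 35 members tested in both, with bars for the SE of the fit and colours for the role. Most members lie at the lower left, Ddit3, Syvn1 and Herpud1 at the upper right, and Atf4 lies farthest to the upper left, with log2 ratios of -1.60 in MIN6 and 1.66 in liver.

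Levels in MIN6 cells were also set against liver within each fraction. Ero1lb, Ddit3 and Trib3 were higher in MIN6 in both fractions, and Pdia4, Herpud1, Sel1l, Edem1 and Dnajc3 lower in both. In the cytoplasmic libraries 5 of 37 members were called higher in MIN6 and 6 lower, where 17.1% and 25.3% of 9113 genes were called. In the nuclear libraries 3 were higher and 10 lower, where 13.8% and 31.2% were called. The members' median log2 ratio of MIN6 over liver was -0.18 in cytoplasm and -0.46 in nuclei, against -0.09 and -0.37 over all genes. In these whole-tissue libraries, fewer cells of a type and less RNA per cell cannot be told apart. The counts between tissues changed with the scaling. With each library summed to 1000000, 19 members were higher and 0 lower in MIN6 cytoplasm, where the median of all genes was 1.08; with the FPKM as deposited, 0 were higher and 32 lower, where it was -2.23.

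Ero1lb had 21.9 and 34.3 scaled FPKM in MIN6 cytoplasm, against 4.10 and 4.15 in liver cytoplasm (log2 ratio 2.47, SE 0.34, adjusted p = 7.22e-04), and its nuclear log2 ratio was 2.27. Ddit3 had a log2 ratio of MIN6 over liver of 2.57 in cytoplasm (SE 0.38, adjusted p = 0.00110) and 3.12 in nuclei (SE 0.38, adjusted p = 4.24e-04). Trib3 had 4.40 and 5.59 scaled FPKM in MIN6 cytoplasm, against 0.402 and 0.406 in liver cytoplasm (log2 ratio 2.09, SE 0.34, adjusted p = 0.00195), and its nuclear log2 ratio was 1.63. Dnajc10 and Ero1l were higher in MIN6 cytoplasm, with log2 ratios of 1.97 (SE 0.26, adjusted p = 6.83e-04) and 0.94 (SE 0.27, adjusted p = 0.0247), and did not pass in nuclei.

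Pdia4 had 10.4 and 9.76 scaled FPKM in MIN6 cytoplasm, against 29.9 and 34.8 in liver cytoplasm (log2 ratio -1.59, SE 0.33, adjusted p = 0.00604), and 2.55 and 5.01 in MIN6 nuclei, against 14.4 and 20.4 in liver nuclei (log2 ratio -1.97, SE 0.33, adjusted p = 0.00205). Herpud1 had log2 ratios of -1.27 in cytoplasm and -1.61 in nuclei, and Edem1 of -0.81 and -1.88. Sil1 was called lower in MIN6 cytoplasm only, on 1 and 4 MIN6 reads and 5 reads in each liver library. Hsp90b1, Pdia3, Atf4, Syvn1 and Selk were called lower in MIN6 nuclei and not in cytoplasm. The Atf4 log2 ratio of MIN6 over liver was -2.09 in nuclei (SE 0.44, adjusted p = 0.00649) and 1.17 in cytoplasm (SE 0.44, adjusted p = 0.0674). Hspa5, Calr and P4hb passed in neither fraction; their cytoplasmic log2 ratios were -0.25, -0.63 and -0.24, with SEs of 0.26, 0.29 and 0.29.

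**Figure D4:**
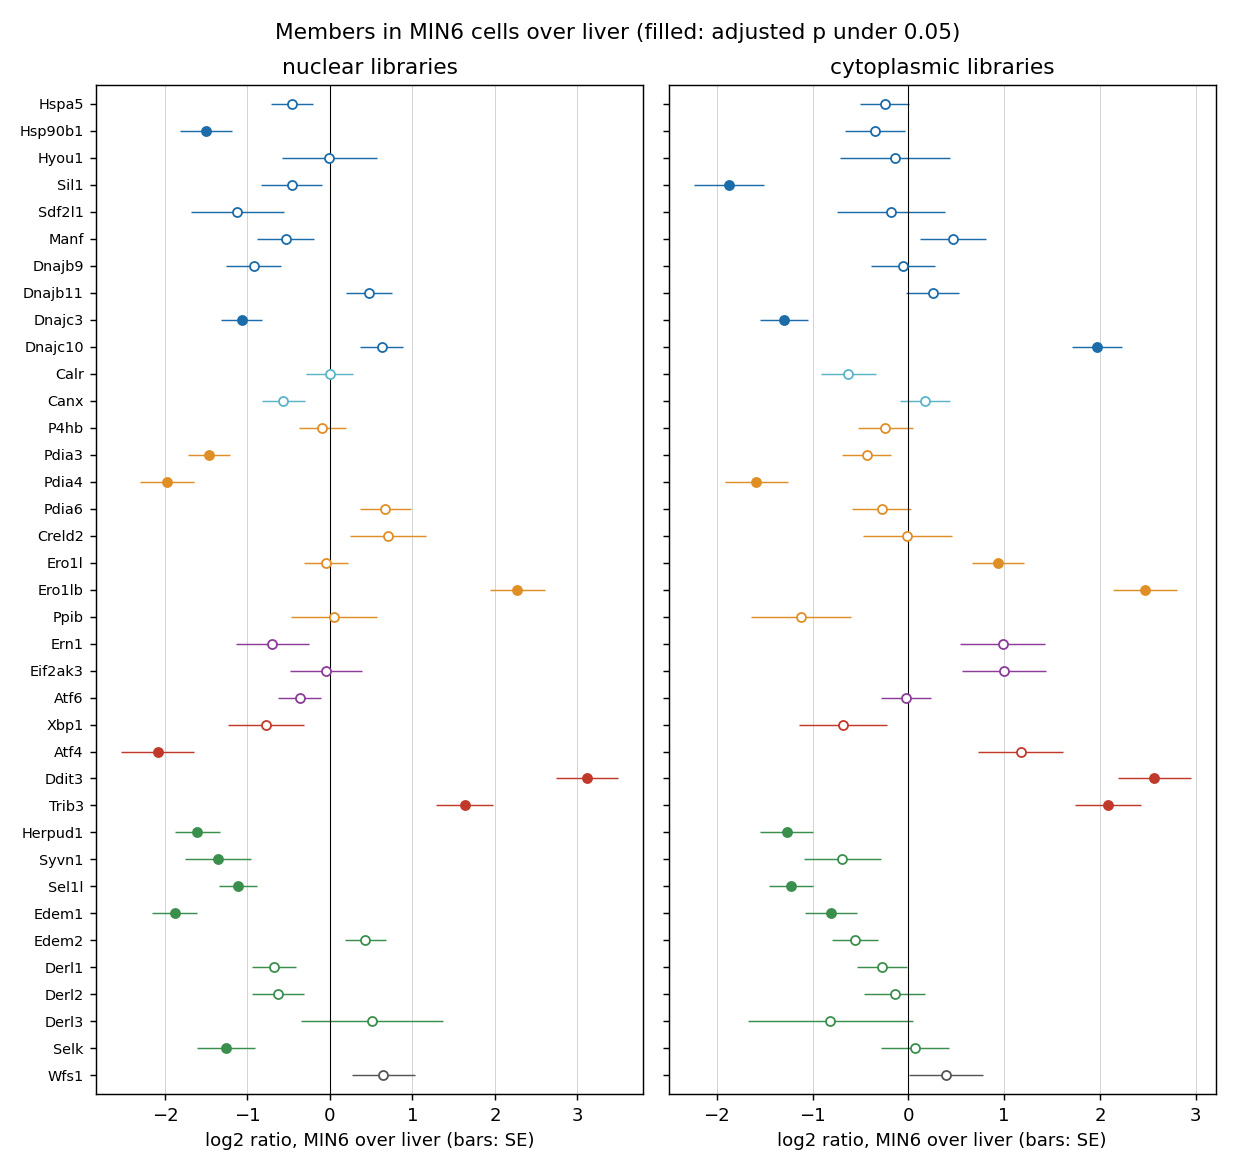
Log2 ratio of MIN6 over liver for the 37 members, in nuclear libraries on the left and cytoplasmic libraries on the right, with bars for the SE of the fit; filled points have an adjusted p under 0.05. Ero1lb, Ddit3 and Trib3 are filled and above 0 on both sides, and Dnajc3, Pdia4, Herpud1, Sel1l and Edem1 filled and below 0 on both.

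A further 82 genes of the same pathways, listed by function, gave a wider view; 80 are in the table. In MIN6, 3 of the 62 tested were called higher in nuclear libraries (Aup1, Txndc11 and Mbtps1) and 29 lower, where 20.1% and 31.1% of all genes were. The highest was Aup1, an ER and lipid droplet protein of the degradation complex, at 1.81 (SE 0.45), followed by the thioredoxin-domain protein Txndc11 at 1.42 (SE 0.30). Mbtps1, the Golgi protease that first cuts ATF6, was at 1.04 (SE 0.33). The lowest were Tmbim6 (BAX inhibitor-1), an ER membrane protein, at -3.16 (SE 0.34), the ER peroxiredoxin Prdx4 at -2.64 (SE 0.32) and the transcription factor Cebpg at -2.63 (SE 0.32). In liver, 4 of 62 tested were called higher and 10 lower, where 18% and 18.5% of all genes were. The highest were Traf2, an adaptor that binds IRE1, at 1.78 (SE 0.35), the proline isomerase Fkbp14 at 1.67 (SE 0.28) and the liver-enriched transcription factor Creb3l3 at 1.39 (SE 0.27). The lowest were Prdx4 at -2.42 (SE 0.33), Tmbim6 at -2.11 (SE 0.46) and the segregase Vcp at -2.03 (SE 0.28). The medians of the list were -0.83 in MIN6 and -0.13 in liver, against -0.27 and 0.01 over all genes. Between tissues 1 of the 53 tested differed, Atf5, a relative of Atf4 named after its value was seen, at -2.54 (SE 0.57, adjusted p = 0.0485).

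The scaling of the libraries set how many members were called. Over all genes the median log2 ratio of nuclear over cytoplasmic was -0.62 in MIN6 and -1.88 in liver with the FPKM as deposited. It was -0.30 and 0.62 with each library summed to 1000000, and 0.05 and 0.18 with factors from the libraries of that tissue alone. With the values as deposited, Atf4, Ddit3, Herpud1 and Syvn1 in liver had log2 ratios of -0.55, -0.35, -1.25 and -0.71, all above the median gene of -1.88 and none called.

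**Figure D5:**
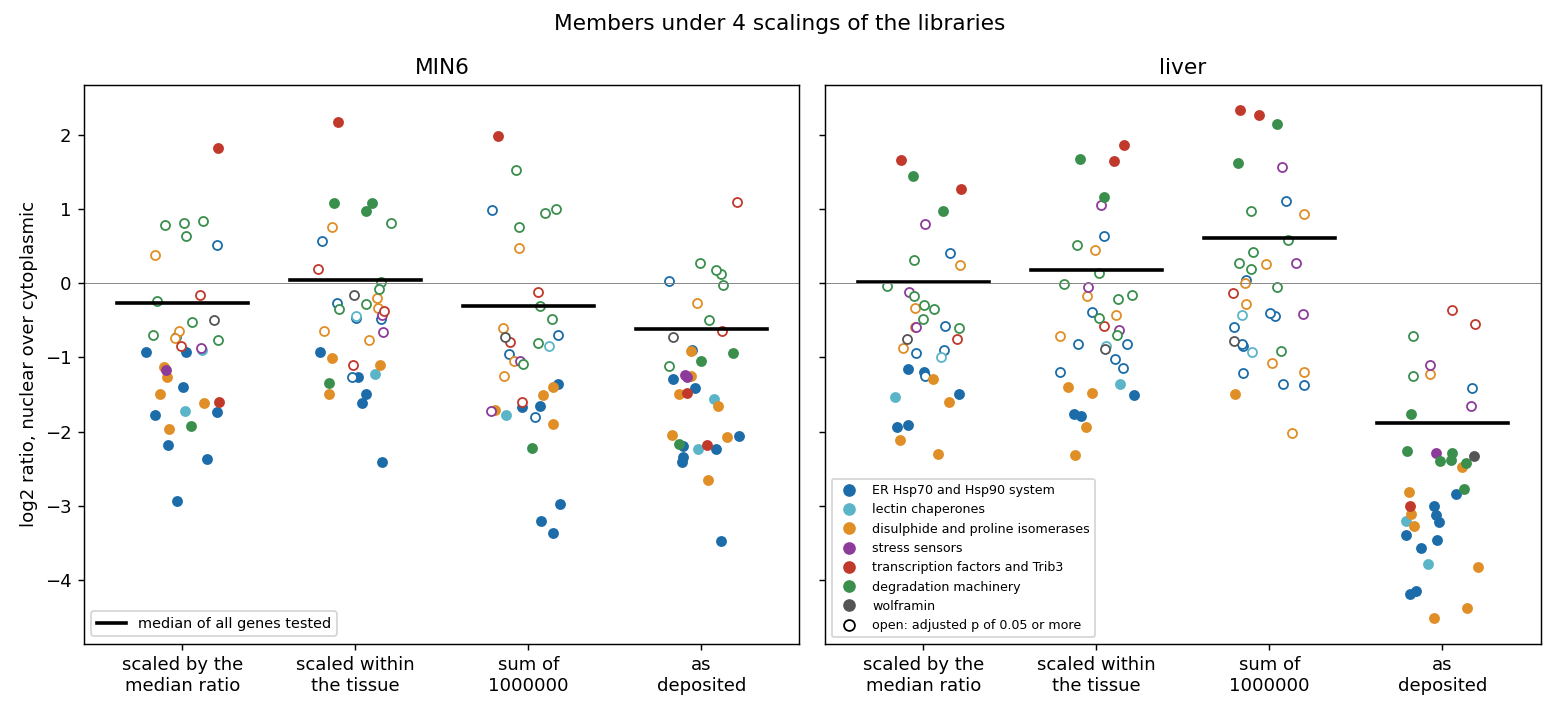
Log2 ratio of nuclear over cytoplasmic libraries of the members under 4 scalings, in MIN6 on the left and liver on the right; points are genes coloured by role, filled where the adjusted p is under 0.05, and black bars are the median of all genes tested. In liver the members move with the bar, to a median of -2.79 with the values as deposited.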

How the data were processed

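PolyA RNA was sequenced from 2 libraries each of MIN6 and mouse liver nuclear and cytoplasmic fractions; replicate labels do not say whether the 2 came from separate cultures or animals, so p-values measure only the spread between these libraries, which may be technical. The deposited table holds 1 value per gene and library, taken as FPKM because the submitters' processing notes name TopHat, Cuffdiff and mm10 and Cuffdiff writes FPKM; the header names no unit. Versions and strandedness were not given in the sources used here. Each library's deposited FPKM were divided by 1 factor, because their sums and the value of 1 read differed widely between libraries: the median ratio over 2861 genes above 0 in all 8 libraries with a mean of at least 1 in each group. Factors were 0.470 and 0.356 (MIN6 nuclear), 0.666 and 0.682 (MIN6 cytoplasmic), 1.12 and 0.735 (liver nuclear) and 5.19 and 3.75 (liver cytoplasmic).

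Genes with a mean of at least 1 scaled FPKM were tested with limma 3.58.1 (R 4.3.3) on log2(scaled FPKM + 1), two-sided, with Benjamini-Hochberg adjustment over all genes tested; fractions were compared within a tissue and tissues over all 8 libraries. The scripts were tested on simulated data. Whole reads were recovered, within 0.005, for 22 of the 37 members, and no count model was used. Members, lists and scaling were chosen with earlier results of these data known. Named genes are the members and, of the other pathway genes, the 3 called genes with the largest ratio each way per tissue; Atf5, Asns, Nupr1, Chac1 and Cebpb, and Creb3l3 between tissues, fall outside this rule and were named after their values were seen. Alternatives were other scalings, a pseudocount of 0.1, no filter or a minimum of 5, a mean-variance trend, a replicate block and leaving out each library. Promoter names for Ero1l, Ero1lb and Selk are Ero1a, Ero1b and Selenok in RefSeq. Gene coordinates and exon overlaps are from GENCODE on mm10. Tools for the tables were Python 3.11.15, pandas 2.3.3 and numpy 2.4.6.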

Additional observations from a re-analysis of the deposited data

Results flagged for a closer look

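The fraction ratio of Atf4 differed between the tissues by a test of the difference itself in limma. It was the 1 member called of 35 tested. Of all 6134 genes tested, 0.815% were called with a larger ratio in MIN6 and 1.91% with a smaller ratio. The Atf4 log2 ratio of nuclear over cytoplasmic was -1.60 in MIN6 and 1.66 in liver, and the MIN6 minus liver difference was -3.26 (SE 0.62, adjusted p = 0.0355). Under 7 alternative settings the difference was between -3.94 and -1.63 and was called in 5; it was not called with the FPKM as deposited or with a pseudocount of 0.1. Without 1 library it was called in 3 of 8 cases. Tissue and fractionation method cannot be told apart here.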

How the results depend on the processing

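With 2 libraries per group the counts of called members moved with the settings. In MIN6, 1 member called higher and 18 lower in nuclear libraries became 0 higher with the FPKM as deposited and 2 higher with a minimum of 5. With a pseudocount of 0.1, 11 members were lower, where 2175 of 7762 genes were. With scaling within the tissue, 4 members were higher and 10 lower, where 1980 and 1661 of the 7762 genes were. In liver, 4 higher and 10 lower became 0 and 28 as deposited and 1 lower with sums of 1000000. With a pseudocount of 0.1, 2 members were higher and 3 lower in liver, where 1036 and 1168 of 8608 genes were. For the MIN6 minus liver difference, 0 larger and 1 smaller became 10 and 0 as deposited, 1 and 2 with no filter, and 0 smaller with a pseudocount of 0.1. MIN6 over liver in cytoplasm gave 5 higher and 6 lower, against 0 and 32 as deposited, 19 and 0 with sums of 1000000 and 3 and 2 with a minimum of 5. In nuclei it gave 3 higher and 10 lower, against 22 lower as deposited and 8 and 4 with sums of 1000000. Over all genes, nuclei had 3700 lower as deposited, and 1863 higher and 1954 lower with sums of 1000000. Without 1 library the members called were 0 to 1 higher and 4 to 15 lower in MIN6, 0 to 1 and 0 to 3 in liver, 0 to 0 and 0 to 1 for the difference, 4 to 7 and 4 to 6 in cytoplasm, and 3 to 3 and 7 to 12 in nuclei. Over all genes the same fits called 683 to 1214 higher and 1006 to 2096 lower in MIN6, 0 to 1119 and 0 to 993 in liver, 0 to 75 and 0 to 150 for the difference, 886 to 1541 and 1774 to 2322 in cytoplasm, and 892 to 1353 and 2005 to 2882 in nuclei.

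Values that reversed did so with the library scale. As deposited, liver log2 ratios were -0.55 for Atf4, -0.35 for Ddit3, -1.25 for Herpud1, -0.71 for Syvn1 and -1.76 for Edem1, and the difference for Pdia4 was 1.46. As deposited, MIN6 over liver in cytoplasm was -2.22 for Manf, -2.34 for Dnajb11, -0.29 for Dnajc10, -2.47 for Canx, -0.86 for Ero1l, -1.28 for Ern1, -1.46 for Atf4, -2.48 for Selk and -1.51 for Wfs1. With sums of 1000000 it was 1.08 for Hspa5, 0.99 for Hsp90b1, 1.09 for P4hb, 0.88 for Pdia3, 1.18 for Atf6, 0.31 for Edem1 and 0.98 for Derl1. Changes of sign where neither fit called the gene are not listed.

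Over all genes, liver counts of 1548 higher and 1593 lower became 343 and 4921 as deposited and 719 lower with sums of 1000000. MIN6 counts of 1560 higher and 2415 lower became 793 higher as deposited and, with fewer genes tested at a minimum of 5, 842 and 1095. The difference's 50 larger and 117 smaller became 1839 and 56 as deposited, 19 and 337 with sums of 1000000, 12 and 37 with a pseudocount of 0.1 and 502 and 893 with no filter. Cytoplasmic counts of 1557 and 2304 became 576 and 6531 as deposited and 3592 and 1379 with sums of 1000000, and nuclear ones of 1257 and 2843 became 424 higher as deposited. With a minimum of 5 and fewer genes tested, liver had 889 higher, the difference 61 smaller, cytoplasm 604 and 1342, and nuclei 586 and 1481. With the replicate block, 1 member was called higher and 18 lower in MIN6, where 1827 and 2687 of all genes were. In liver 3 and 11 members were, where 1632 and 1625 genes were. For the difference 0 and 1 members were called, where 45 and 94 genes were. In cytoplasm 6 and 5 members were, where 1569 and 2305 genes were. In nuclei 3 and 11 members were, where 1259 and 2835 genes were. With the block, Herpud1 in liver was lost (adjusted p = 0.0717) and Sdf2l1 gained (adjusted p = 0.0368). Between tissues, Edem1 was lost (adjusted p = 0.0566) and Ern1 gained (adjusted p = 0.0490) in cytoplasm, and Sdf2l1 gained in nuclei (adjusted p = 0.0327). The labels do not say whether same-numbered libraries share material. Over all tested genes, the replicate 1 minus replicate 2 differences of the 2 fractions correlated at 0.034 in MIN6 and 0.058 in liver. This cannot decide the question, because low genes rest on few reads and a shared source may show in few genes. Single reads limit Sil1, Derl3, Trib3 and Ddit3 in liver.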

Other observations

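Among the 82 further pathway genes, Asns, Nupr1 and Chac1 were called higher in MIN6 than in liver in both fractions. Asns (asparagine synthetase), a target of ATF4, had 59.1 and 70.6 scaled FPKM in MIN6 cytoplasm, against 3.75 and 0 in liver cytoplasm (log2 ratio 4.91, SE 0.63), and 34.6 and 27.0 in MIN6 nuclei, against 0.689 and 0.665 in liver nuclei (log2 ratio 4.23, SE 0.63). The stress-induced chromatin protein Nupr1 had log2 ratios of MIN6 over liver of 3.80 in cytoplasm and 2.72 in nuclei (SE 0.32 each). Chac1, a glutathione-degrading enzyme, had 3.22 in cytoplasm and 1.66 in nuclei (SE 0.35 each).

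Creb3l3, an ER-bound transcription factor of liver, and Cebpb lay the other way. Creb3l3 had at most 0.838 scaled FPKM in any MIN6 library, against 141.9 and 135 in liver nuclei and 50.0 and 54.8 in liver cytoplasm. Cebpb had at most 0.620 scaled FPKM in any MIN6 library, against 24.9 and 19.3 in liver nuclei and 8.21 and 7.63 in liver cytoplasm. All these differences between tissues had an adjusted p under 0.05 in limma; the genes were named after their values were seen. Over the list, 12 of 66 tested were called higher and 15 lower in MIN6 cytoplasm, where 17.1% and 25.3% of all genes were. In MIN6 nuclei 8 were higher and 23 lower, where 13.8% and 31.2% of all genes were.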
